A study of Mus musculus with 2 samples.

Results

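The genes described here encode 35 aminoacyl-tRNA synthetases, 19 of them cytosolic and 16 mitochondrial, out of 27179 genes counted in mouse interscapular brown adipose tissue (iBAT). They were listed by gene symbol, and a mitochondrial enzyme was recognised by the suffix 2. The deposited tables held 34 of the 35 symbols. Gars1 appeared under the older symbol Gars and was matched by its Entrez identifier. Gars1 and Kars1 each supply both compartments from a single gene and were counted with the cytosolic enzymes. All 35 passed the minimum mean normalised count of 10, which 15212 genes passed.

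The study asked what loss of uncoupling protein 1 (UCP1), which lets brown fat mitochondria release energy as heat, changes in the transcriptome of young iBAT. The tissue came from untreated C57BL/6N mice aged 20 days that were either wild-type or homozygous for a Ucp1 deletion (Ucp1-KO). For each genotype, iBAT of 3 animals was combined into 1 poly-A-enriched, strand-specific library. With 1 pool per genotype there was no spread between animals to measure, so no p-value or standard deviation can be given and each difference holds for this pair of libraries.

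An aminoacyl-tRNA synthetase joins an amino acid to its matching tRNA at the cost of ATP, which makes the tRNA ready for the ribosome. Cytosolic enzymes charge the tRNAs of general protein synthesis, and several of them are held together in the multisynthetase complex. Mitochondria have enzymes of their own, encoded in the nucleus and imported, that charge the tRNAs made from mitochondrial DNA for the synthesis of respiratory chain subunits, of which brown fat holds many. Many genes of cytosolic synthetases are known targets of the transcription factor ATF4, which binds C/EBP-ATF response elements when amino acids are scarce or mitochondria are disturbed.

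The promoters of the synthetase genes were therefore searched for the core of that element, TGATGNAA or TTNCATCA on the other strand, from 250 bases before to 50 bases after the RefSeq transcription start. Promoter sequences were those of RefSeq (GRCm38.p6), and their positions come from an exact match to GRCm39. The table held 26 of the 35 genes, 12 cytosolic and 14 mitochondrial. The core was present in 5 of the 12 cytosolic genes (Aars1, Gars1, Iars1, Tars1 and Yars1) and in 0 of the 14 mitochondrial ones. Not every window reaches the bases before the canonical transcript, as given with the ratios below. Over all genes with a promoter sequence 4.51% held it, and of the genes examined here 2.8%, which is 3.97% of all 32851 promoters and 2.34% of those of the genes examined. The cytosolic genes missing from the table were Cars1, Hars1, Lars1, Nars1, Rars1, Vars1 and Wars1, and the mitochondrial ones Hars2 and Pars2. The match nearest the start of each of the 5 genes is shown, because these promoters divide the cytosolic genes. Each is given on the strand of its gene from 5′ to 3′, as 30 bases with the core in capitals.
Aars1, core at chr8:111760483-111760490: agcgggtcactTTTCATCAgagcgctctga
Gars1, core at chr6:55014956-55014963: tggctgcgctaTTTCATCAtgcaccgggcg
Iars1, core at chr13:49835613-49835620: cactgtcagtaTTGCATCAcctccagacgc
Tars1, core at chr15:11399752-11399759: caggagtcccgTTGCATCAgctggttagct
Yars1, core at chr4:129083699-129083706: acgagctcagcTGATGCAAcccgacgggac

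These genes lie on the plus strand except Tars1, which lies on the minus strand. Relative to the RefSeq start, the first base of the core shown was at +10 in Aars1, -30 in Gars1, -15 in Tars1, +8 in Iars1 and +4 in Yars1. On the GENCODE canonical transcripts the cores of Gars1, Iars1 and Yars1 fell in the untranslated part of an exon, and those of Aars1 and Tars1 upstream of the first exon. In Iars1 and Tars1 the core read TTGCATCA, and Yars1 held the same letters on the other strand, TGATGCAA. Gars1 and Aars1 read TTTCATCA. A match is a description of the letters and not evidence of binding.

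The libraries differed in ways that touch these genes and are given before them. The wild-type library held 52950913 counts and the Ucp1-KO library 53216727. Ucp1 itself had 366473 and 37853 counts, which left 12.7% of the wild-type level after scaling. The animals are labelled male, yet 4 Y-linked genes (Eif2s3y, Kdm5d, Uty and Ddx3y) were at 0 in the wild-type library and at 491 to 3446 counts in the Ucp1-KO one, and Xist was at 32380 and 16478. Markers of skeletal muscle were all at least 2-fold lower in Ucp1-KO (20 of 20, median log2 ratio -2.74, none at 0), from 0.639% to 0.0754% of all counts. Of 10 brown adipocyte markers 9 were higher beyond counting error (median 0.70, 1.14% and 1.19% of counts), 7 of 8 endothelial markers were lower (median -0.87, 0.214% and 0.107%), and 5 of 8 macrophage markers were higher (median 0.67, 0.00604% and 0.00621%), with none at 0 in either library. Over all genes examined, 31.5% were higher and 30.5% lower beyond counting error. The part of these differences in the synthetase values was not tested, and genotype, sex-linked transcripts and muscle content cannot be told apart here. In bulk tissue, fewer cells of a type and less RNA per cell also cannot be told apart.

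Levels are compared between genes per kilobase (kb) of the Ensembl canonical transcript, on normalised counts. Cytosolic enzymes had a wild-type median of 759 normalised counts per kb and a Ucp1-KO median of 1067, and mitochondrial enzymes medians of 288 and 353. Lars2, for mitochondrial leucine, had the highest level of all 35, at 9266 for wild-type and 7654 for Ucp1-KO. Gars1, for glycine, followed with 3559 and 5492, Nars1, for asparagine, with 2108 and 3682, and Kars1, for lysine, with 1491 and 1663. The 2 genes that serve both compartments were thus among the 4 highest in wild-type. The next were Iars2 (1291), Fars2 (1270) and Sars1 (1250.5), which lay close together. At the other end were Mars2, for mitochondrial methionine, with 56.7 and 64.4, and Ears2, for mitochondrial glutamate, with 90.4 and 120. Lengths of a single transcript per gene were used, and genes whose main transcript in this tissue is shorter would have higher levels than given.

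**Figure D1:**
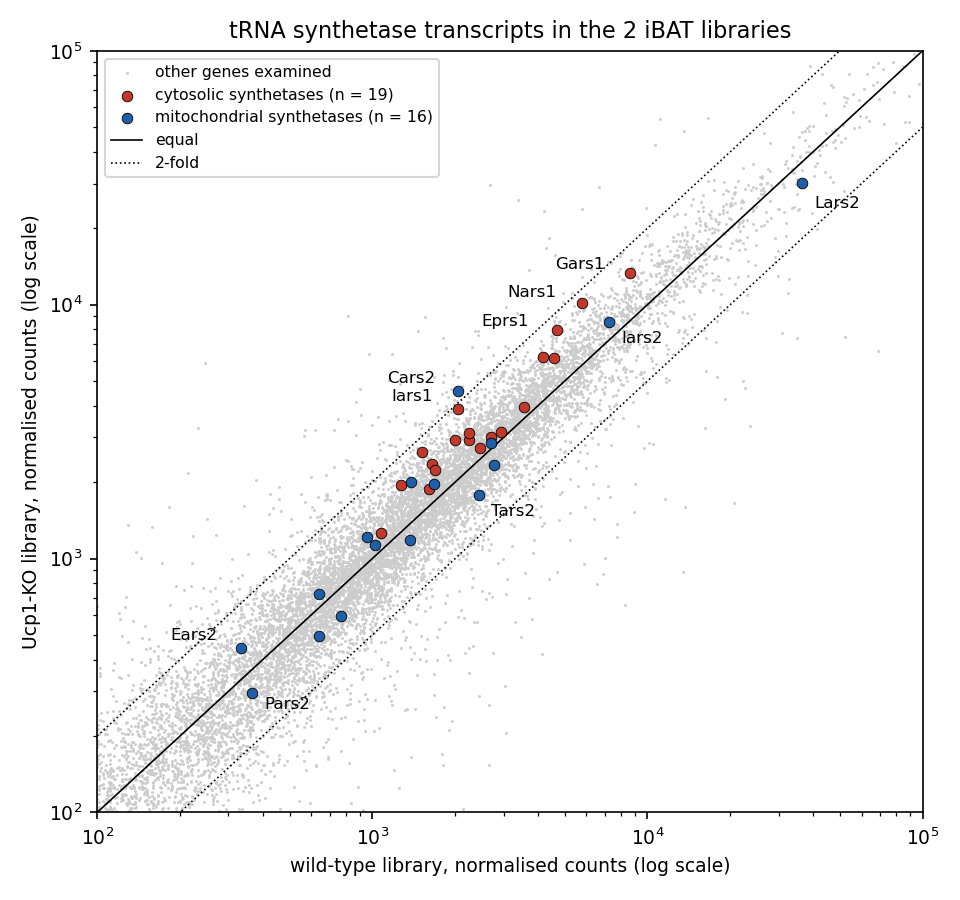
Normalised counts of each synthetase in the wild-type library (x axis, log scale) and in the Ucp1-KO library (y axis, log scale), with other genes examined in grey, the solid line for equal levels and dotted lines for 2-fold differences. All 19 cytosolic enzymes (red) lie above the solid line, although 6 would lie below it with equal totals, while 9 of the 16 mitochondrial enzymes (blue) lie above and 7 below, and Cars2 alone of the 35 lies beyond 2-fold, which it does not with equal totals.

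The value compared between the libraries is the log2 ratio, log2((Ucp1-KO + 0.5)/(wild-type + 0.5)) on counts scaled by DESeq2 median-of-ratios factors. Its 95% interval, given in parentheses, is exact for counting read pairs and covers counting error only. All 19 cytosolic synthetases had a log2 ratio above 0, between 0.10 and 0.92 with a median of 0.47, whereas with counts scaled to equal totals 13 were above 0 and 6 below. The interval lay above 0 in 18 of them and covered 0 in Qars1. Of the 16 mitochondrial synthetases 9 were above 0 and 7 below, from -0.45 to 1.16 with a median of 0.11. With equal totals 4 were above 0 and 12 below. Their interval lay above 0 in 6, below 0 in 6 and covered 0 in 4. Over all 15212 genes the median was -0.0016, and 31.5% had an interval above 0 and 30.5% below. Synthetases are well expressed, and among the 9740 genes whose mean normalised count reached 300 these shares were 38.4% and 33.4%. So 94.7% of the cytosolic and 37.5% of the mitochondrial enzymes stood above 0 beyond counting error, beside 38.4% of genes of such depth. All these shares are on the median-of-ratios factors.

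Few synthetases differed by much. At 2-fold, 1 of 35 was higher, Cars2, and 0 were lower, against 7.42% and 9.55% of all genes and 2.97% and 3.79% of the deeper ones, and with equal totals 0 were higher, as Cars2 was then at 0.85. At 1.5-fold on the median-of-ratios factors, 6 cytosolic enzymes (Iars1, Nars1, Cars1, Eprs1, Gars1 and Vars1) and 1 mitochondrial enzyme (Cars2) were higher and 0 lower. The background at 1.5-fold was 15.4% higher and 17.9% lower over all genes, and 10.3% and 10.5% over the deeper ones. The cytosolic share past 1.5-fold, 31.6%, was above that background, and the mitochondrial share, 6.25%, was below it. With equal totals Iars1 alone of the 19 cytosolic enzymes (5.26%) was 1.5-fold higher, beside 8.61% of all genes. On the lower side 4 of the 16 mitochondrial enzymes (25%) and 0 cytosolic ones then passed 1.5-fold, beside 30.9% of all genes. These were Tars2, Sars2, Wars2 and Pars2. Shares of the deeper genes were not computed with equal totals, so neither list is placed against genes of like depth there. No test between the lists was made, because genes are not replicates.

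**Figure D2:**
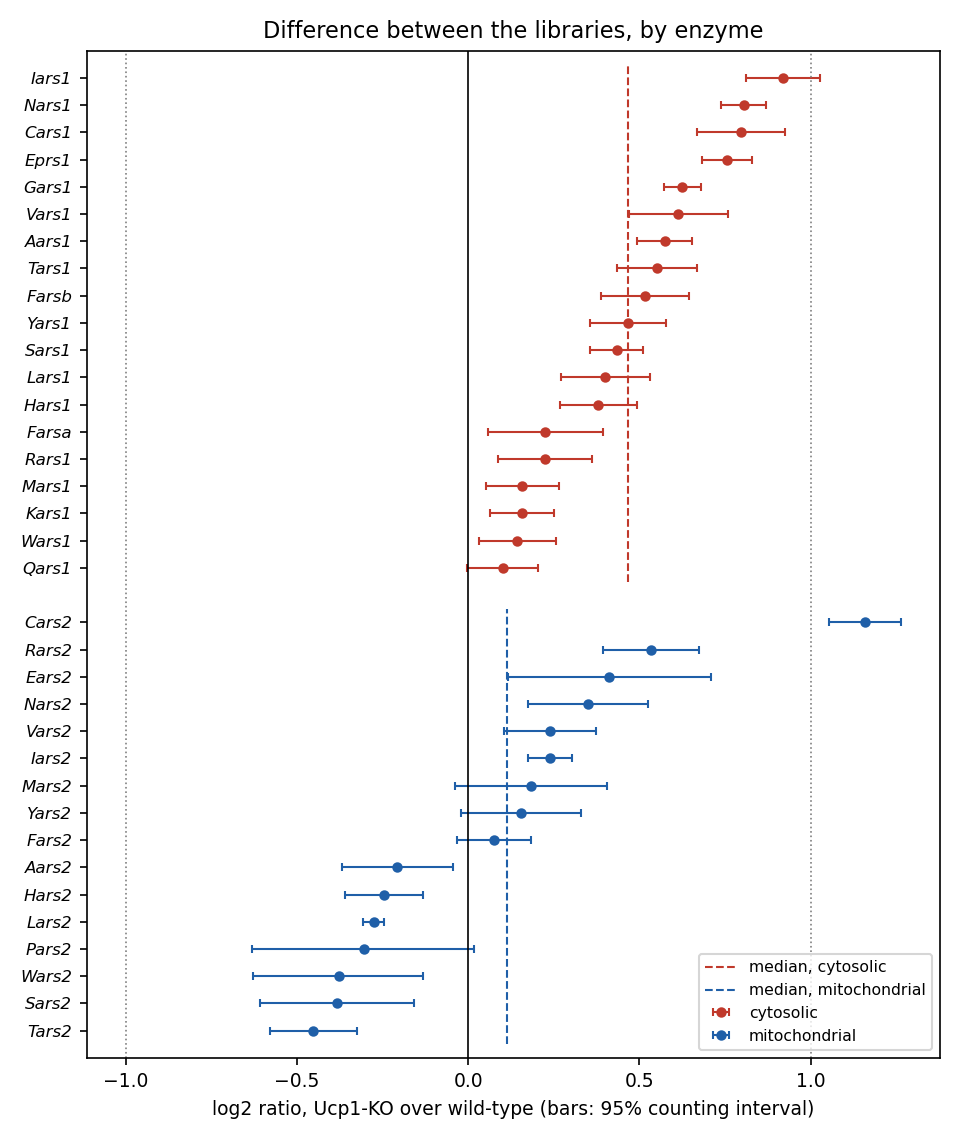
Log2 ratio of Ucp1-KO over wild-type (x axis) for each of the 19 cytosolic (red) and 16 mitochondrial (blue) synthetases, with bars for the 95% counting interval, dashed lines for the medians and dotted lines at 2-fold. Cytosolic values run from 0.10 to 0.92 around a median of 0.47 (6 of them below 0 with equal totals), and mitochondrial values from -0.45 to 1.16 around a median of 0.11.

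Among the cytosolic enzymes that work outside the multisynthetase complex, the ratios were highest for asparagine and cysteine. For Nars1 the wild-type count was 6419 and the Ucp1-KO count 9111, with a log2 ratio of 0.80 (0.74 to 0.87). Cars1 had 1679 and 2369 counts and the same ratio of 0.80 (0.67 to 0.93). Their intervals overlap each other, and that of Nars1 lies above those of the other free enzymes except Vars1. Gars1 (chr6:55014927-55061231, plus strand) went from 9588 to 12020 counts, at 0.63 (0.57 to 0.68). For Vars1, which charges valine, the counts were 1412 and 1755, and for Aars1, the alanine enzyme, 4634 and 5603, with log2 ratios of 0.61 and 0.57. The canonical exons of Aars1 share 1326 bases, 23.0% of their length, with Exosc6 on the same strand, so its count is uncertain whatever the strand setting. Tars1, for threonine, had 2224 and 2646 counts and a ratio of 0.55, and Farsb, the beta subunit of the phenylalanine enzyme, 1823 and 2118 and a ratio of 0.52. From Gars1 down to Farsb all intervals overlap, so the order of these enzymes is not resolved.

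The lower end of the free enzymes was set by tyrosine, serine, histidine, the alpha subunit for phenylalanine and tryptophan. Yars1 had 2494 wild-type and 2802 Ucp1-KO counts (log2 ratio 0.47), and Sars1 5061 and 5553 (0.43). Hars1, whose gene shares exon bases with Hars2 on the opposite strand, had 2493 and 2636 (0.38). Farsa, the alpha subunit that pairs with Farsb, had 1195 and 1135 counts, a ratio of 0.23 (0.06 to 0.39) that was lower than that of its partner, with intervals that just met at 0.39. Wars1, an enzyme that interferon is known to induce, had 2730 and 2451 counts and the lowest ratio of the free enzymes, 0.14 (0.03 to 0.26). All 12 free enzymes had an interval above 0, beside 38.4% of genes of at least 300 normalised counts, and their median was 0.53. Equal totals move every log2 ratio by -0.31, which would put the interval of Wars1 below 0 and bring those of Farsa and Hars1 over 0.

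The 7 enzymes of the multisynthetase complex differed more among themselves. Iars1 (chr13:49835576-49887745, plus strand), which charges isoleucine, had 2270 and 3487 counts and the highest log2 ratio of any cytosolic synthetase, 0.92 (0.81 to 1.03). Eprs1, a fused enzyme for glutamate and proline, had 5197 and 7132 counts, at 0.76 (0.68 to 0.83). These 2 stood apart from the other 5. Lars1, the leucine enzyme, which also acts as a leucine sensor for mTORC1, had 1870 and 2005 counts and a ratio of 0.40 (0.27 to 0.53). Rars1, for arginine, had 1789 and 1697 counts (0.22), Mars1, for methionine, 3004 and 2723 (0.16), and Kars1 3945 and 3575 (0.16). Qars1, for glutamine, had 3244 and 2827 counts and a ratio of 0.10 (-0.0028 to 0.20). For Rars1, Mars1, Kars1 and Qars1 the raw counts were lower in Ucp1-KO, and the ratio was above 0 only after scaling. The median of the complex was 0.22, which is 0.31 below that of the free enzymes. Of the 7 intervals 6 lay above 0 (85.7%, beside 38.4% of genes of at least 300 normalised counts). With equal totals only those of Iars1 and Eprs1 would lie above 0. Summed over the complex, counts were 21319 and 23446, and over the free enzymes 41752 and 50199.

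The scaling decides the sign for the lowest cytosolic ratios. Transcripts of the mitochondrial genome took 22.4% of the wild-type total and 36.7% of the Ucp1-KO total, which lowers the share left for nuclear genes. When counts were scaled to equal totals every log2 ratio moved by -0.31, and Farsa, Kars1, Mars1, Qars1, Rars1 and Wars1 fell below 0, to between -0.21 and -0.082. Iars1 (0.61), Nars1 (0.50), Cars1 (0.49) and Eprs1 (0.45) kept ratios above 0 under equal totals. Totals without the mitochondrially encoded genes, or TMM factors, gave every synthetase the same sign as the median-of-ratios factors.

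The mitochondrial enzymes split into groups above and below 0. Cars2 (chr8:11558417-11600875, minus strand), which charges mitochondrial cysteine tRNA and is also known to make cysteine persulfides, had 2275 wild-type and 4124 Ucp1-KO counts. Its log2 ratio of 1.16 (1.05 to 1.26) was the highest of all 35 synthetases, and 909 of the 15212 genes had a higher one. With equal totals it was at 0.85, under 2-fold. Its canonical exons share 796 bases, 10.5% of their length, with Naxd on the opposite strand, and Naxd had a ratio of 0.05. Rars2, for arginine, followed with 1534 and 1804 counts, at 0.53 (0.39 to 0.67). Ears2 had 371 and 401 counts, at 0.41 (0.12 to 0.71), and Nars2 1062 and 1099, at 0.35 (0.17 to 0.52). Vars2 had 1855 and 1779 counts and Iars2 8036 and 7705, each with a ratio of 0.24 that turned to -0.07 with equal totals. For Iars2 38.4% of the canonical exon length overlaps Rab3gap2 (ratio 0.32) on the opposite strand, and its own level is uncertain to that extent if counting ignored strand, which was not stated.

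For Mars2, Yars2 and Fars2 the counts were too close to separate the libraries. Mars2 had 711 and 656 counts (0.18), Yars2, for tyrosine, 1131 and 1022 (0.15), and Fars2, for phenylalanine, 2999 and 2568 (0.08), each interval covered 0, and all 3 were below 0 with equal totals. The Fars2 interval, -0.033 to 0.18, allows a level up to 1.14-fold higher. Of the exon length of Yars2 50.3% is shared with Dnm1l on the opposite strand, which had a ratio of 0.00.

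The 7 enzymes with ratios below 0 were those for threonine, serine, tryptophan, proline, leucine, histidine and alanine. Tars2 went from 2707 to 1608 counts and had the lowest log2 ratio of the list, -0.45 (-0.58 to -0.32), a 1.37-fold difference. Sars2 had 857 and 534 counts, at -0.38 (-0.61 to -0.16), and Wars2 712 and 445, at -0.38 (-0.63 to -0.13). Their intervals overlap with each other and with that of Tars2. Pars2, with 406 and 267 counts the least deeply counted of them, was at -0.30, and its interval of -0.63 to 0.017 covered 0. Hars2 had 3078 and 2111 counts, at -0.24 (-0.36 to -0.13), and Aars2 1516 and 1067, at -0.21 (-0.37 to -0.045). All 7 stayed below 0 with counts scaled to equal totals.

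Lars2 (chr9:123195952-123291731, plus strand) had the most counts of the list, 40441 and 27142, and a log2 ratio of -0.28 (-0.31 to -0.24). That is 40441 of the 69691 counts of all mitochondrial synthetases in wild-type tissue and 27142 of 54332 in Ucp1-KO tissue. Its count is uncertain, because part of its last exon is repeated elsewhere. Within a stretch of 398 of the 1166 bases of that exon (chr9:123290857-123291254) lay 19 matches to other places. Each had 90% identity or more over at least 50 bases. The longest covered 244 bases, the closest had 99.3% identity, and the matches reached 12 other chromosomes. The ribosomal RNA genes Rn45s (344420 and 221301 counts, -0.34) and Rn18s (-0.40) were lower too, and their part in the value of Lars2 was not tested. Without Lars2 the mitochondrial median was 0.15 and without Cars2 0.076, on the same side of 0 for the median-of-ratios factors. The shift of -0.31 with equal totals would put both below 0.

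Synthetases fall into class I and class II by the fold of the catalytic domain, and the classes were compared within each compartment. In the cytosol the medians were 0.40 for the 9 class I and 0.52 for the 9 class II enzymes, with Eprs1, which holds both, left out. In mitochondria the 9 class I enzymes had a median of 0.24, with 7 above 0 and 2 (Lars2 and Wars2) below. The 7 mitochondrial class II enzymes had a median of -0.24, with 2 (Nars2 and Fars2) above 0 and 5 below. With equal totals the tallies were 3 above and 6 below for class I (median -0.07) and 1 above and 6 below for class II (median -0.55). The interval lay above 0 in 5 class I and 1 class II mitochondrial enzymes (55.6% and 14.3%), and below 0 in 2 and 4 (22.2% and 57.1%). Among genes of at least 300 normalised counts 38.4% lay above 0 and 33.4% below. The lists are small and share their libraries, so this is a description.

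A direct comparison within each library is given by enzymes for the same amino acid, since the scaling of the library cancels in their ratio. There were 17 such pairs of a cytosolic and a mitochondrial enzyme, with Eprs1 and Fars2 each in 2 of them. The cytosolic enzyme had the higher log2 ratio beyond counting error in 13 pairs, the mitochondrial one in 2, and 2 were within it. Pairs of other genes were not compared, so this count has no background share. Among single genes of at least 300 normalised counts, 38.4% were higher and 33.4% lower beyond counting error. The number of pairs beyond counting error is therefore not read as particular to synthetases. The median difference was 0.46 on the log2 scale, or 1.37-fold. The difference was largest for proline, where Eprs1 had 12.8 (wild-type) and 26.7 (Ucp1-KO) counts for each count of Pars2, a log2 difference of 1.06 (0.73 to 1.39). For threonine, Tars1 had 0.822 and then 1.65 counts per count of Tars2, a difference of 1.00 (0.83 to 1.18), so the order of their counts turned over between the libraries. The same occurred for histidine, with 0.810 and 1.25 counts of Hars1 per count of Hars2, a difference of 0.62 (0.46 to 0.79).

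Serine (0.82), alanine (0.78), isoleucine (0.68) and leucine (0.68) came next, followed by tryptophan (0.52), asparagine (0.46), Farsb against Fars2 (0.44), valine (0.37), Eprs1 against Ears2 (0.34) and tyrosine (0.31). These differences arose in unlike ways. For isoleucine both enzymes were higher in Ucp1-KO and Iars1 by more, while for serine Sars1 was higher and Sars2 lower. Only cysteine and arginine went the other way. Cars1 had 0.738 and 0.574 counts per count of Cars2, a log2 difference of -0.36 (-0.53 to -0.19). Rars1 had 1.17 and 0.941 counts per count of Rars2, a difference of -0.31 (-0.51 to -0.11). For methionine the enzymes kept their proportion, with 4.23 and 4.15 counts of Mars1 per count of Mars2, a difference of -0.03 (-0.27 to 0.22), and Farsa against Fars2 was at 0.15 (-0.05 to 0.35). Per kb, the cytosolic enzyme had the higher level in 10 of the 17 pairs in wild-type and in 11 in Ucp1-KO.

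**Figure D3:**
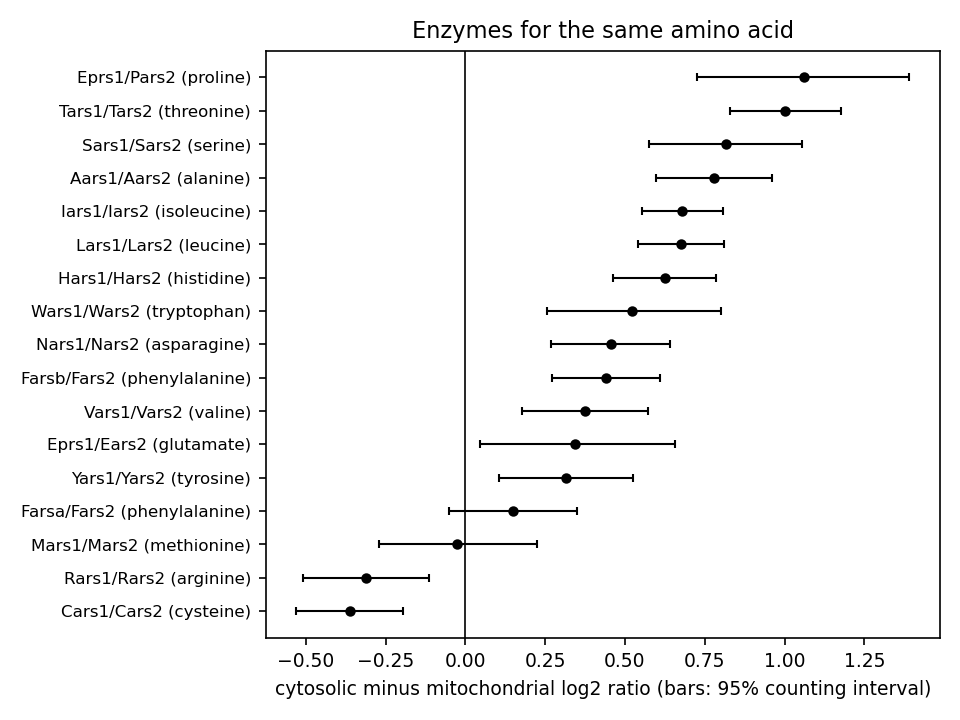
Difference of the log2 ratios of the cytosolic and the mitochondrial enzyme for the same amino acid (x axis), with bars for the 95% counting interval, for 17 pairs. The interval lies above 0 in 13 pairs, from tyrosine (0.31) to proline (1.06), and below 0 in the pairs for arginine (-0.31) and cysteine (-0.36). Pairs of other genes were not compared.

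Summed over the list, synthetases took 0.251% of the wild-type total and 0.240% of the Ucp1-KO total. Mitochondrial enzymes held 52.5% of these synthetase counts for wild-type, with an exact binomial interval of 52.1% to 52.9%, and 42.5% (42.1% to 42.8%) for Ucp1-KO. The direction was the same without Lars2, where the shares were 31.7% (31.3% to 32.1%) and 27.0% (26.6% to 27.4%). Without Gars1 and Kars1, which serve both compartments, they were 58.5% and 48.3%, and per kb 46.5% and 36.6%. Over the cytosolic enzymes the summed counts had a log2 ratio of 0.52 (0.50 to 0.55), and over the mitochondrial enzymes of -0.06 (-0.08 to -0.04). The mitochondrial sum thus lay below 0 while the mitochondrial median lay above it, because Lars2 weighs heavily in the sum. Without Lars2 the sum was at 0.19 (0.16 to 0.23). This contrast of signs holds for the median-of-ratios factors only. Equal totals move every log2 ratio by -0.31, so the median was then at -0.19 and the sums with and without Lars2 lay below 0 too.

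The presence of the C/EBP-ATF core divided the cytosolic genes as follows. The 5 with a core had log2 ratios of 0.47 (Yars1) to 0.92 (Iars1), with a median of 0.57. The 7 without one, Eprs1, Farsa, Farsb, Kars1, Mars1, Qars1 and Sars1, ranged from 0.10 to 0.76 with a median of 0.23. The ranges overlap, since Eprs1 (0.76) and Farsb (0.52) lie among the genes with a core. Those not in the promoter table had a median of 0.40 and ranged from 0.14 to 0.80. Cars2, with the highest ratio of the list, had no core in its window. The window is short, and the letters can lie outside it. In Qars1, Rars2 and Wars2 all 250 bases before the RefSeq start lay in exons of the GENCODE canonical transcript. Their windows thus do not reach the bases before that transcript. In Fars2 231 and in Ears2 223 of the 250 bases lay in such exons.

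Other enzymes that charge or complete tRNAs, not in the list, had a median of 0.40, and 4 of 7 had an interval above 0 and 0 below, where genes of at least 300 normalised counts stood at 38.4% and 33.4%. Tars3, a further threonine enzyme, had 1342 and 1520 counts and a ratio of 0.48. Pstk, a kinase in the making of selenocysteine tRNA, was at 0.74. Qrsl1, a subunit of the amidotransferase that makes mitochondrial glutamine tRNA, was at 0.65, while its partner subunits Gatb (-0.02) and Gatc (-0.03) had intervals that covered 0. The scaffold proteins of the multisynthetase complex were all higher beyond counting error, Eef1e1 at 0.58, Aimp1 at 0.48 and Aimp2 at 0.34. With equal totals the medians were 0.09 for the other enzymes, with 4 above 0 and 3 below, and 0.17 for the scaffolds. The shift of -0.31 would then bring the intervals of Aimp1 and Aimp2 over 0, and put those of Gatb and Gatc below 0.

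Downstream of charging, translation factors of the mitochondria had a median below 0 and elongation factors of the cytosol one above 0, which with counts scaled to equal totals was below 0 too. Of 9 mitochondrial translation factors, 1 had an interval above 0 and 5 below (11.1% and 55.6%, beside 38.4% and 33.4% of the deeper genes), with a median of -0.28. The lowest were Mrrf, a ribosome recycling factor, at -0.61, the initiation factor Mtif3 at -0.55 and the release factor Mtrf1l at -0.40. Of 6 cytosolic elongation factors 3 were above and 1 below, with a median of 0.16, and Eef1a1, which delivers charged tRNA to the ribosome, had a ratio of 0.46. Eef1b2 had 0.45, and Eef1a2, the form used in muscle, 2570 and 406 counts and -2.36, beside the muscle markers at a median of -2.74. Enzymes that process or modify mitochondrial tRNAs had a median of 0.08 over 16 genes, or -0.22 with equal totals. Their 7 intervals above 0 (43.8%) are near the 38.4% of the deeper genes, and 2 lay below 0. Pus1, a pseudouridine synthase, was at 0.94, Trmt10c, a subunit of the mitochondrial RNase P, at 0.67, and the methyltransferase Trmt5 at 0.61.

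The pathway that senses uncharged tRNA and acts on synthetase genes was read from 3 lists. The 4 kinases of the translation factor eIF2 had a median of -0.09 and intervals that all covered 0, as did 2740 of the 9740 genes of at least 300 normalised counts. Among them was Eif2ak4 (GCN2), the sensor of uncharged tRNA, with 818 and 730 counts and a ratio of 0.14. With equal totals all 4 were below 0, with a median of -0.39. The shift of -0.31 would then put the intervals of all but Eif2ak4 below 0. Of 12 genes of the ATF4 pathway, 8 had an interval above 0 and 2 below, with a median of 0.78, and 7 were past 1.5-fold. That is 66.7%, 16.7% and 58.3% of the list, beside 31.5%, 30.5% and 15.4% of all genes. The 2 below were Eif4ebp1 (-0.26) and Cebpb (-0.19). With equal totals the median of this list was 0.47, with 8 genes above 0 and 4 below. Past 1.5-fold were then 6 (50%), beside 8.61% of all genes. Atf4 had 3721 and 8375 counts, at 1.47, Atf3 274 and 5320, at 4.58, and Chac1, which breaks down glutathione, 15 and 42, at 1.75. Ddit3, at 0.90, shares 74 exon bases with Mars1 on the opposite strand, 2.52% of the Mars1 exons. Of 9 amino acid transporters, 5 had an interval above 0 and 1 below (55.6% and 11.1%, beside 31.5% and 30.5% of all genes), with a median of 0.85. With equal totals the transporter median was 0.55, with 8 above 0 and 1 below. Slc7a5, which imports large neutral amino acids, had 32 and 151 counts, at 2.52. Slc1a4 was at 1.78 and Slc3a2, the partner chain of Slc7a5, at 1.64, while the glutamine transporter Slc1a5 was at -0.79. Earlier results of these data had shown higher stress response genes, so the ATF4 list is not independent evidence.

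**Figure D4:**
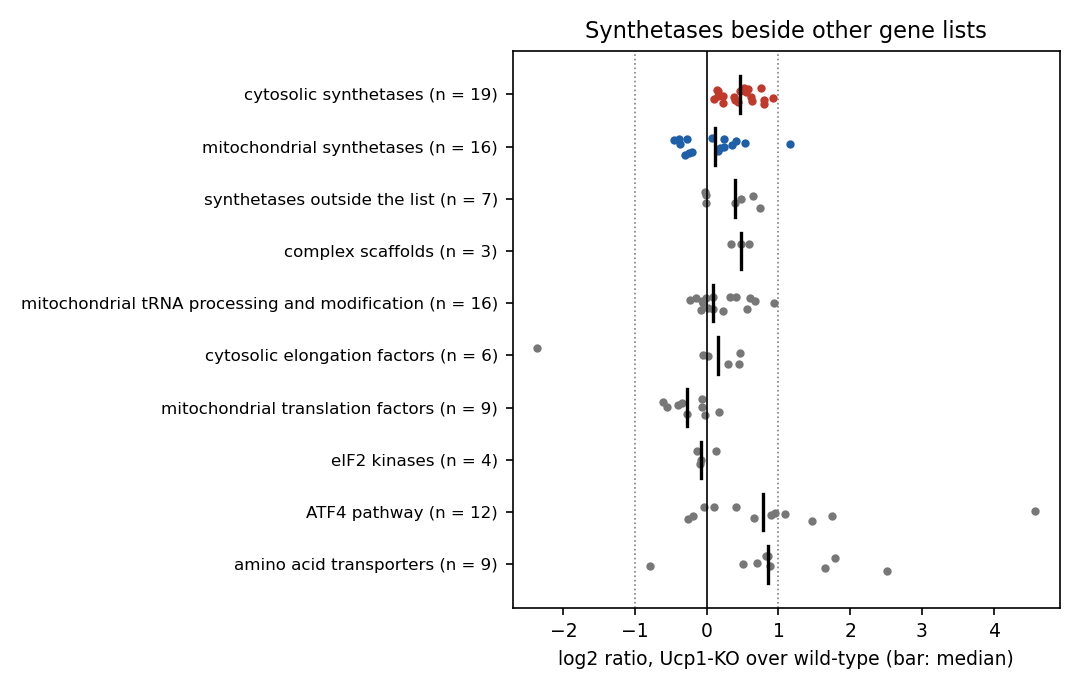
Log2 ratio of Ucp1-KO over wild-type (x axis) for the genes of each list, with a black bar for the median and dotted lines at 2-fold. Cytosolic synthetases (red, median 0.47) lie above 0, apart from 6 with equal totals, and mitochondrial ones (blue, 0.11) on both sides of it. The mitochondrial translation factors have a median of -0.28, and the ATF4 pathway and amino acid transporters have medians of 0.78 and 0.85. With equal totals those of the ATF4 pathway and transporters were 0.47 and 0.55.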

How the data were processed

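RNA of iBAT was sequenced as 1 wild-type and 1 Ucp1-KO library. The deposited values are raw counts per gene, made by the authors with featureCounts and not normalised, listed by Entrez identifier for 27179 genes (1319 without a symbol, holding 0.156% and 0.121% of the counts). The submitters' processing notes name Trim Galore, HISAT2 and the build mm39. Settings for strand and for reads with several matches are not given in the sources used here, so overlapping and repeated genes are uncertain.

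Size factors came from DESeq2 1.42.0 in R 4.3.3 (1.11 wild-type, 0.901 Ucp1-KO), with TMM (edgeR 4.0.16) and total counts as alternatives. Genes were examined from a mean of 10 normalised counts upward, with a pseudocount of 0.5. Low counts were mostly even (70.7% and 73.4% of genes with 1 to 10 counts), so exact binomial intervals (95%, Clopper-Pearson, SciPy 1.17.1 in Python 3.11.15) were taken on read pairs, the counts divided by 2. These intervals hold counting error and nothing else, as no molecular identifiers are described for the reads. Pairs of enzymes were compared by the exact conditional odds ratio. The calculation was tested on simulated data drawn with counting error of read pairs only and without scaling. That checks the code, and not the scaling or any spread beyond counting error.

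Positions and canonical exons are those of GENCODE vM39 on GRCm39, repeats of Lars2 were found with BLAST 2.17.0, and promoters are from RefSeq (GRCm38.p6). All 35 synthetases were named, and up to 3 genes of each other list by size of the log2 ratio, with all sex-linked markers. Gatb, Gatc, Eif2ak4, Ddit3, Eif4ebp1, Cebpb, Naxd, Rab3gap2, Dnm1l, Rn45s, Rn18s, Slc1a5 and Exosc6 were named after their values were seen. Some items are not reported here. The members and lists were chosen with earlier results of these data known.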

Additional observations from a re-analysis of the deposited data

How the results depend on the processing

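No paired analysis was possible because there was a single library of either genotype, and leaving a library out was not possible either. Of 96 alternative values for the main results 72 stayed within their error or within 1.5-fold and 24 moved. Some of the 72 were fixed in advance, such as medians under another filter and the difference of medians under another scaling. All 35 log2 ratios of synthetases kept within error under TMM factors, totals without mitochondrially encoded genes and a pseudocount of 5. A minimum mean of 50, no filter and intervals on counts as deposited cannot change a ratio, so they are no check of it.

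Total counts shift every log2 ratio by -0.31. They gave medians of 0.16 for the cytosolic and -0.19 for the mitochondrial enzymes, 0 mitochondrial enzymes at 2-fold, and 732 genes higher and 2320 lower. Ratios beyond counting error changed sign for Farsa (-0.082), Kars1 (-0.15), Mars1 (-0.15), Rars1 (-0.083), Wars1 (-0.16), Iars2 (-0.068) and Vars2 (-0.068), and ratios within it for Qars1 (-0.21), Fars2 (-0.23), Mars2 (-0.12) and Yars2 (-0.15). The difference of the medians and the pairs do not depend on the scaling by construction.

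The number of genes at 2-fold was 2187 higher and 2844 lower without a filter, 617 and 811 with a minimum mean of 50, and 289 and 369 with one of 300, added after seeing the data. A 1.5-fold rule gave 2348 and 2728 genes and 6 cytosolic enzymes, and an interval wholly beyond 2-fold 414 and 566 genes. Sums in place of medians gave -0.060 for the mitochondrial enzymes and a difference of 0.58. Mitochondrial shares were 46.5% and 36.6% per kb, 58.5% and 48.3% without Gars1 and Kars1, and, added after seeing the data, 31.7% and 27.0% without Lars2. Depth limits Pars2, Ears2 and Wars2 most, whose intervals are the widest, and the spread between animals is unknown for every gene.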
